A study of Mus musculus with 45 samples.

Results

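The 8 genes described here belong to the p53 family and its close regulators: Trp53, Trp63, Trp73, Mdm2, Mdm4, Atm, Chek2 and Cdkn1a. They were found by the gene name that the array design gives each probe, which yielded 13 probes of the 42235 on chromosomes 1 to 19 and X, and 8 of the 20034 genes tested. Of these genes, 5 had a pair of probes each, and Trp63, Trp73 and Cdkn1a had 1 probe each. The measurement was array comparative genomic hybridization, in which tumor DNA and reference DNA carry different dyes and compete for the same probe, so that the log2 ratio of the dyes follows the relative number of DNA copies.

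p53 is a transcription factor that halts the cell cycle or starts apoptosis after DNA damage or oncogene activation. Its relatives p63 and p73 bind similar sites in DNA, and p63 is known in mammary gland as a marker of basal cells. Mdm2 is the ubiquitin ligase that marks p53 for degradation, Mdm4 binds p53 and blocks its activity, Atm and Chek2 are kinases that signal DNA breaks to p53, and Cdkn1a encodes the cyclin-dependent kinase inhibitor p21, a direct p53 target. Breast and mammary tumors often lose this pathway, through p53 itself or through extra copies of its inhibitors.

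Invasive primary mammary tumors from female mice of 8 engineered models were hybridized, 1 array for each of 45 tumors. In 3 models p53 was altered. The p53-/- model had 6 tumors that arose in transplants from animals with floxed p53 and an MMTV-cre transgene, and the BRCA1-/-;p53+/- model, also called Brca1-deleted here, had 5 tumors with floxed BRCA1, 1 p53 allele and MMTV-cre. The C3(1)-Tag model had 5 tumors driven by the SV40 T and t antigens, of which large T binds p53. In the other models an oncogene was expressed from the MMTV promoter, which is active in mammary epithelium: c-Myc in 5 MMTV-Myc tumors, polyoma middle T in 9 MMTV-PyMT tumors, Her2/neu in 5 MMTV-Her2/neu tumors, H-Ras in 5 MMTV-HRas tumors and Wnt1 in 5 MMTV-Wnt1 tumors. The labels give each of the 45 arrays a pooled reference, called spleen in one label and normal mammary tissue in another. The study's methods name spleen DNA and its results spleen DNA of the background strain, so the reference may not have been the same DNA for every model. The names of the strains, age and the share of tumor cells were not given. A small change in all cells and a larger change in some of them cannot be told apart in such bulk DNA.

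Across the arrays the median probe was 3.67 to 16.7 times its local background in Cy3 and 2.09 to 14.4 times in Cy5, and 96.6% to 99.8% of spots were well above background. The labels give Cy5 for the tumor and Cy3 for the reference, but the files ran the other way. Of the 513 deposited intervals of at least 10 probes, 489 had the sign of Cy3 over Cy5, and the second Brca1 probe lay between -5.14 and -1.69 in the BRCA1-/-;p53+/- tumors by that ratio, against -0.64 to 0.78 elsewhere. All values below are therefore Cy3 over Cy5, a choice made after these values were seen. With the dyes as labelled, every sign below would turn.

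Some arrays stood apart. The segment profiles of C3(1)-Tag tumor 4 and MMTV-Her2/neu tumor 3 correlated at 0.977, and those of C3(1)-Tag tumor 3 and MMTV-Her2/neu tumors 1 and 2 at 0.855 and 0.847. Those of MMTV-Her2/neu tumor 1 and p53-/- tumor 2 correlated at 0.809, against a median of 0.045 over all 990 pairs of arrays. Probe by probe, after the neighbouring signal was subtracted, the first pair correlated at 0.008. MMTV-Wnt1 tumor 1 had a Wnt1 probe at 0.07, below the 1.07 to 1.5 of the other 4. Within p53-/-, the probe by probe deviations correlated at 0.438 in the median pair, against 0.127 between models, and at 0.931 between tumors 2 and 3, 0.883 between tumors 4 and 6, 0.845 between tumors 1 and 5 and 0.811 between tumors 5 and 6. The values of these 6 arrays, on which every p53-/- call rests, are therefore not fully independent readings of single probes. The deviations correlated at 0.893 between MMTV-PyMT tumors 8 and 9, and at 0.857 between MMTV-Her2/neu tumor 4 and MMTV-HRas tumor 1, of different models. The 45 arrays came from 18 slides and 10 scan dates. The arrays of the Brca1-deleted model shared no scan date with another model, so scan and model cannot be told apart there. The 6 p53-/- arrays filled 2 slides that held no other model, so slide could enter that comparison only as a random block. The labels do not say which tumors came from separate animals, so the p-values measure the spread between these tumors only.

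In the comparison of the 3 models with altered p53 against the 5 others, none of the 8 genes passed. Over all genes 2.81% did so, at an adjusted p of 0.05 by limma, which fits each gene over all 45 tumors. Of the 8, 2 had an unadjusted p under 0.05 (17.8% of all genes). Mdm2 averaged -0.17 in the p53-altered models and 0.05 in the others, a difference of -0.22 ± 0.092 (SE, adjusted p = 0.189 by limma). Mdm4 averaged 0.28 and 0.12, a difference of 0.17 ± 0.072 (SE, adjusted p = 0.198 by limma). The median difference of the 8 genes was -0.0014, and that of all genes was -0.00040. Each of the 3 single-model comparisons below was made against the same 29 tumors, so they are not independent of each other.

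**Figure D1:**
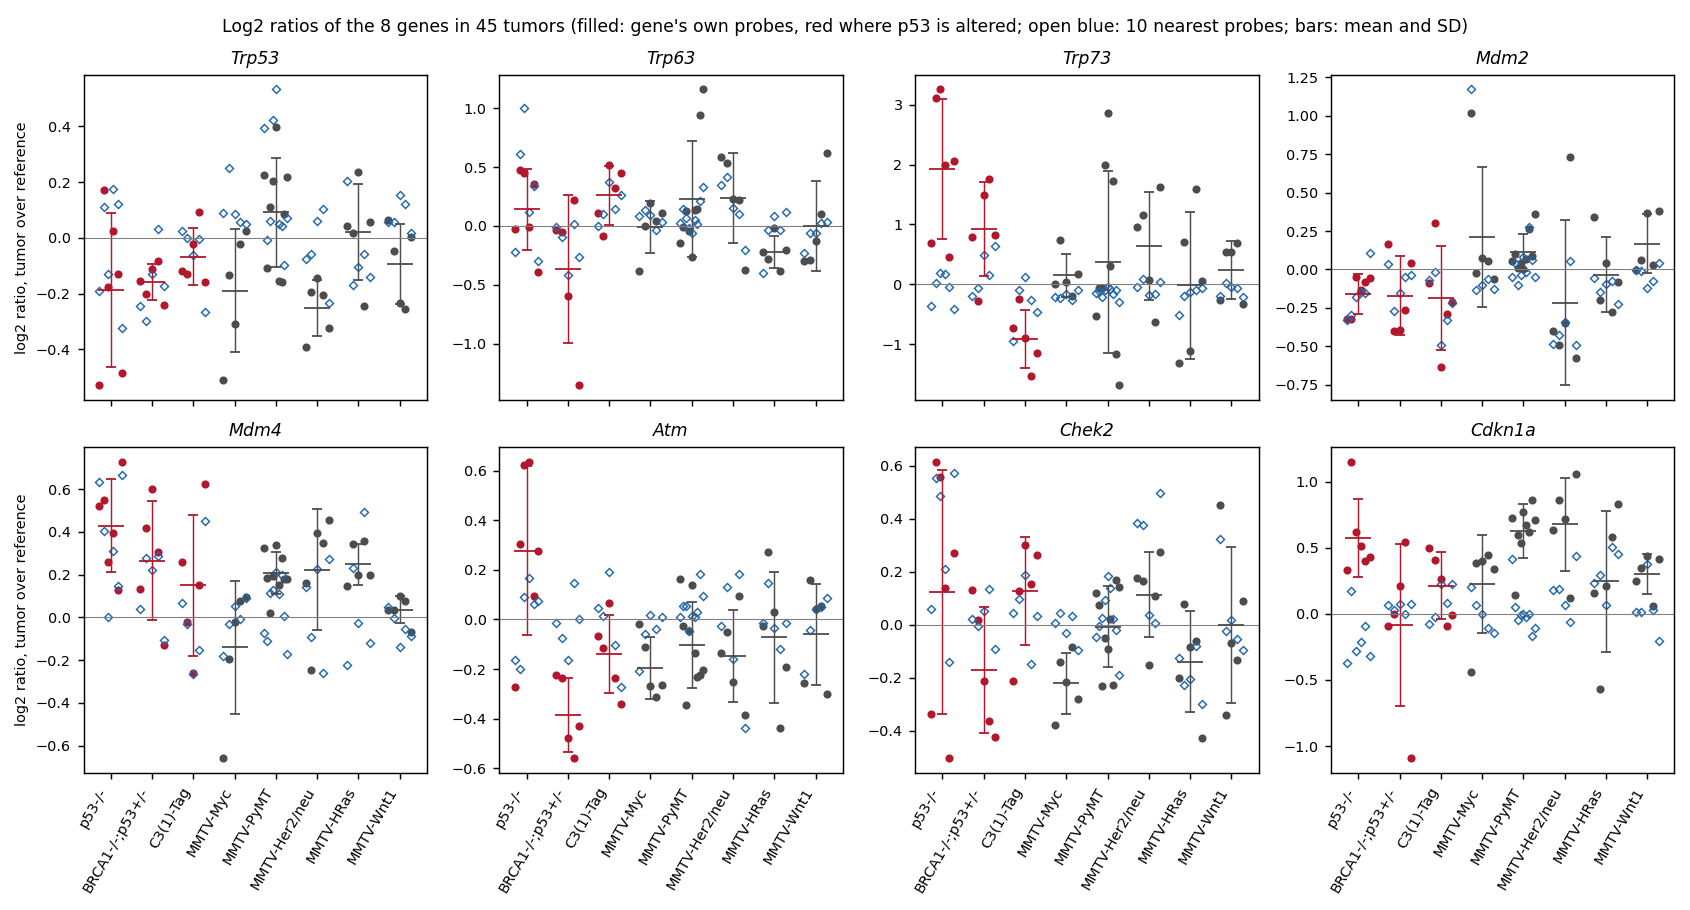
Log2 ratio of tumor over reference (vertical axis) by model (horizontal axis) for each of the 8 genes in 45 tumors. Filled points are means of the gene's own probes, red in the 3 models with altered p53, open blue diamonds are means of the 10 nearest probes, and bars give mean and SD of the filled points. Trp73 reached 3.26 in a p53-/- tumor while its neighbours stayed below 0.20 there, and Mdm2 reached 1.02 in 1 MMTV-Myc tumor together with its neighbours.

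Trp53 lies on chromosome 11, and its probes covered chr11:69396256-69396315 and chr11:69399814-69399873 in the mm8 build. Whether either probe falls in the floxed exons was not determined, because no mm8 gene annotation was used here, so the ratio does not check the p53 genotype. In the p53-/- tumors Trp53 ranged from -0.53 through a median of -0.15 to 0.17. The BRCA1-/-;p53+/- tumors measured -0.15, -0.20, -0.11, -0.09 and -0.24, and the C3(1)-Tag tumors -0.12, -0.13, -0.02, 0.09 and -0.16. All 5 tumors of the first of these models lay below 0, and none was near the values of the Brca1 probe in the same arrays. Both BRCA1 alleles were floxed in this model while 1 p53 allele was kept, so Trp53 and that probe need not read alike.

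In the other models the MMTV-PyMT tumors had the highest Trp53 values, from -0.16 through 0.11 to 0.40. The MMTV-Her2/neu tumors had the lowest mean, with -0.39, -0.19, -0.14, -0.21 and -0.32. MMTV-Myc tumors measured -0.51, -0.13, -0.31, -0.02 and 0.03. MMTV-HRas tumors lay between -0.25 and 0.23 and MMTV-Wnt1 tumors between -0.26 and 0.07, so that every model overlapped its neighbours in the order of means. The difference between p53-/- and the other models was -0.10 ± 0.087 (SE, adjusted p = 0.455 by limma, 95% interval -0.28 to 0.07), and between the p53-altered models and the others -0.05 ± 0.061 (SE, adjusted p = 0.690, interval -0.18 to 0.07). With 1 tumor left out these differences ranged from -0.17 to -0.034 and from -0.077 to -0.031. The pair of Trp53 probes, 3558 bases apart, correlated at only 0.174 over the 45 tumors, and neither passed alone.

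The Trp53 neighbourhood varied less than that of most genes. The SD of the 10 nearest probes over the tumors was 0.18, above 21.5% of genes. Trp53 lay in a lost segment in 6 of 45 tumors and in a gained segment in 3, the 3 gains being MMTV-PyMT tumors 1, 4 and 5 with segment means of 0.40, 0.39 and 0.47. The losses were shallow and broad. They had segment means of -0.33 to -0.23 over 17.3 to 119 Mb of chromosome 11, in BRCA1-/-;p53+/- tumors 1 and 2, p53-/- tumors 1 and 6, C3(1)-Tag tumor 5 and MMTV-Her2/neu tumor 5. Wdr79, whose nearest probe is 2.34 kb from Trp53, was lower in the p53-altered models by -0.20 (adjusted p = 0.0361 by limma) and in BRCA1-/-;p53+/- by -0.30 (adjusted p = 0.0321). Atp1b2, on the other side, did not pass in either (-0.14 and -0.29, adjusted p = 0.502 and 0.325).

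Trp63, on chromosome 16, differed widely between single tumors. Its probe ranged from -0.40 through 0.17 to 0.47 in p53-/-, and measured -0.04, -0.05, -0.60, 0.22 and -1.35 in BRCA1-/-;p53+/-. The C3(1)-Tag tumors measured 0.11, -0.09, 0.52, 0.32 and 0.45. Tumor 5 of the former model was the lowest of all 45, and MMTV-PyMT tumors 8 and 9 were the highest, at 0.95 and 1.16, where the 10 nearest probes averaged 0.21 and 0.33. These are the 2 arrays with alike probe by probe deviations, so their readings are not independent. No contrast passed for Trp63. The lowest p was that of the Brca1-deleted model, with -0.41 ± 0.18 (SE, adjusted p = 0.189 by limma), which was -0.17 without tumor 5. Its near neighbour AK045496 was lower in that model by -0.37 (adjusted p = 0.0112).

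The whole of chromosome 16 was raised in p53-/- tumors 2 and 3, with segment means of 0.44 and 0.72 over 94.6 Mb, and the Trp63 probe itself read 0.47 and 0.45 there. Trp63 was gained in 7 tumors and lost in 4. The other gains were in p53-/- tumor 5, C3(1)-Tag tumors 3 and 5 and MMTV-Her2/neu tumors 1 and 2. The losses were in p53-/- tumor 6, BRCA1-/-;p53+/- tumor 5, MMTV-Her2/neu tumor 5 and MMTV-HRas tumor 1, the last over the whole chromosome at -0.38. Without C3(1)-Tag tumors 3 and 4 and MMTV-Her2/neu tumors 2 and 3, 4 of the arrays with alike profiles, 5 of 41 tumors had a gain, and without MMTV-Her2/neu tumor 1 as well, 4 of 40.

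Trp73, at chr4:152945845-152945904, gave the largest difference of the 8 genes in the p53-/- comparison, at 1.65, but with another background correction, normexp, its 0.17 was below the 0.27 of Mdm4 and the 0.30 of Atm. In p53-/- it ranged from 0.46 through 2.03 to 3.26, with all 6 tumors above 0. BRCA1-/-;p53+/- tumors measured 0.78, -0.27, 1.49, 1.77 and 0.83, and all 5 C3(1)-Tag tumors lay below 0, at -0.73, -0.24, -0.89, -1.54 and -1.15. The p53-/- and C3(1)-Tag values did not overlap, but with normexp they did (-0.09 to 0.63 and -0.09 to 0.20).

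The oncogene models spanned much of this range. Only p53-/- tumors 2 and 3, at 3.11 and 3.26, lay above all of their values, and these arrays had alike probe by probe deviations. With normexp they read 0.50 and 0.63, below the 0.77 of MMTV-PyMT tumor 9. MMTV-PyMT tumors ran from -1.69 through -0.06 to 2.87, MMTV-HRas tumors measured -1.32, 0.70, -1.11, 1.6 and 0.05, and MMTV-Her2/neu tumors 0.96, 1.16, 0.07, -0.62 and 1.63. MMTV-Myc tumors lay between -0.20 and 0.75 and MMTV-Wnt1 tumors between -0.33 and 0.69. Trp73 was higher in p53-/- than in the other models by 1.65 ± 0.43 (SE, adjusted p = 0.00813 by limma). Genes called higher in that contrast were 8.21% of all. In C3(1)-Tag the difference was -1.19 ± 0.47 (SE, unadjusted p = 0.0145, adjusted p = 0.774 by limma), and with normexp it was -0.041.

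The 10 probes nearest to Trp73 did not share these values. They averaged from -0.41 to 0.19 in the p53-/- tumors, and their difference between p53-/- and the other models was 0.07 ± 0.096 (SE, adjusted p = 0.672 by limma). The difference between the Trp73 probe and these neighbours, called the local difference, was higher in p53-/- by 1.58 ± 0.42 (SE, adjusted p = 0.00650 by limma, with 10.1% of genes called higher). With normexp it was 0.11 (adjusted p = 0.588) and with scan date as a block 0.78 (adjusted p = 0.352). The SD of the local difference over the 45 tumors was 1.13, above that of 99.2% of the 9319 genes with 1 probe, whose median was 0.27.

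The Trp73 probe was also dim. It was 2.80 times background in Cy3 and 1.69 times in Cy5, 0.687% of probes were dimmer in Cy5, and it was well above background in both channels on 84.4% of arrays. With normexp the p53-/- tumors ranged from -0.09 through 0.11 to 0.63 and the difference was 0.17 (adjusted p = 0.390 by limma). With scan date as a block it was 0.88 (adjusted p = 0.317). Within the first scan date it was 1.28 (3 p53-/- tumors against 11 others) and within the second 0.55 (3 against 3). Without p53-/- tumor 3 it was 1.38 (adjusted p = 0.0551). The part of dimness and scan date in this result was not tested.

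The segments around Trp73 followed its probe in some tumors only. In p53-/- tumors 1 and 6 they were called lost, at -0.27 and -0.32, while the probe read 0.68 and 2.06. In C3(1)-Tag tumor 3 the segment was called gained, at 0.23, while the probe read -0.89. The probe had the sign of its called segment in BRCA1-/-;p53+/- tumors 3 and 5 and C3(1)-Tag tumors 1 and 5. The same held in MMTV-HRas tumor 1 and MMTV-Myc tumor 4. Over the 45 tumors the probe correlated with its 10 nearest probes at 0.449. The end of chromosome 4, up to its last probe, was lowered in C3(1)-Tag tumor 1, with a mean of -0.94 over 7.03 Mb, and raised in BRCA1-/-;p53+/- tumors 3 and 5, with means of 0.42 and 0.70 over 5.50 and 6.29 Mb. In the mean of the 10 nearest probes, BRCA1-/-;p53+/- exceeded the other models by 0.34 ± 0.10 (SE, adjusted p = 0.0380 by limma), a call that the Trp73 probe itself did not give (0.64 ± 0.47, adjusted p = 0.475). Trp73 was called lost in 6 tumors and gained in 3. The 2 genes of other chromosomes most like the Trp73 probe over the 45 tumors were Ccr8 (r = 0.876) and AK032638 (r = 0.873).

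**Figure D2:**
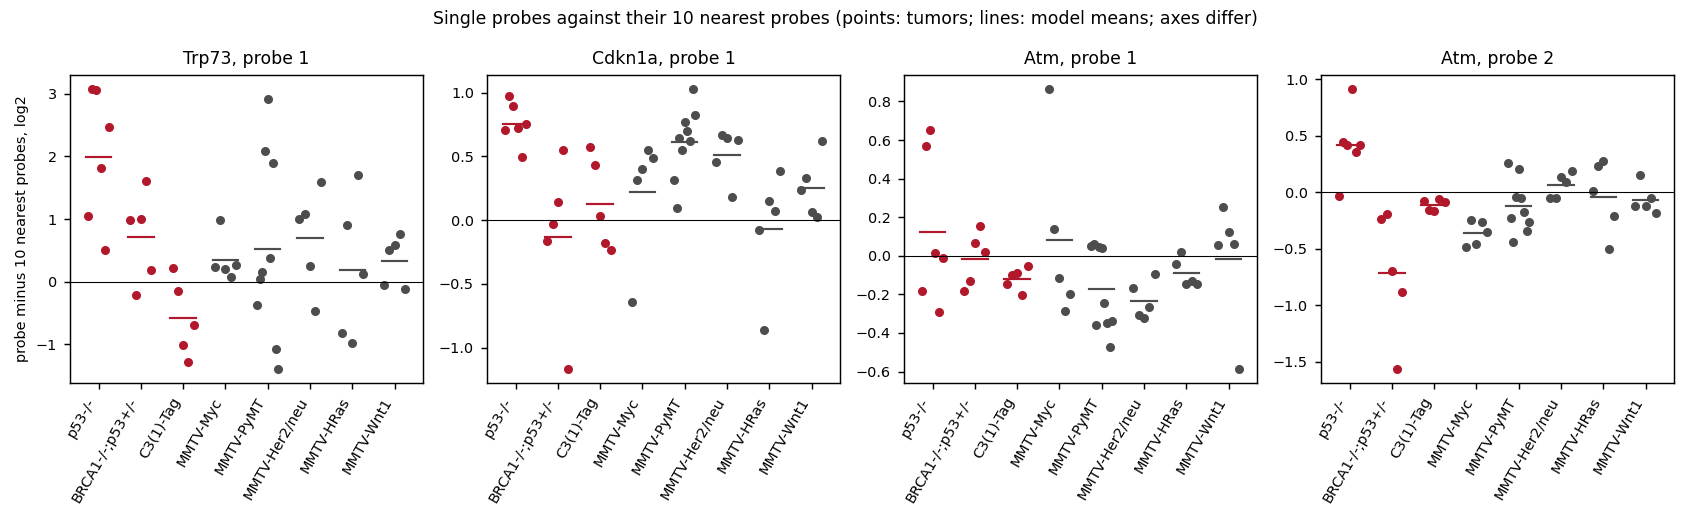
Local difference, a probe's log2 ratio minus the mean of its 10 nearest probes (vertical axis, scales differ between panels), by model (horizontal axis) for the probes of Trp73 and Cdkn1a and both probes of Atm. Points are tumors and lines are model means, red in the models with altered p53. All 6 p53-/- tumors lay above 0 for Trp73 and Cdkn1a, and all 5 Brca1-deleted tumors lay below 0 for the second Atm probe. These signs were shared: all MMTV-Myc tumors lay above 0 for Trp73, and all MMTV-PyMT, MMTV-Her2/neu and MMTV-Wnt1 tumors for Cdkn1a. All MMTV-Myc and C3(1)-Tag tumors also lay below 0 for the second Atm probe.

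Mdm2 showed the only narrow, high gain among the 8 genes. In MMTV-Myc tumor 1 its probes averaged 1.02, against -0.02, 0.07, 0.05 and -0.06 in the other 4 MMTV-Myc tumors. The gained segment, chr10:116352687-117575704, spanned 1.22 Mb and 39 probes with a mean of 1.34, a ratio of 2.53, while the segments on either side had means of -0.05 and -0.02. Of the 39 probes, 36 read above 0.5. A second gained segment began 1.91 Mb further along the chromosome, ran over 10.3 Mb to the last probe of the chromosome and had a mean of 1.25.

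The Mdm2 segment held probes of 14 named genes with Mdm2 among them, chosen for description after their values were seen, and 11 of them read higher than Mdm2 in this tumor. Cpsf6, which encodes a factor of RNA 3' end processing, read 2.11, and Yeats4, a subunit of chromatin complexes, 1.92. Rap1b, a small GTPase, read 1.09. Frs2, an adaptor of fibroblast growth factor receptors, read 0.51 and was the lowest. None of these 4 genes exceeded 0.18 in the other MMTV-Myc tumors.

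**Figure D3:**
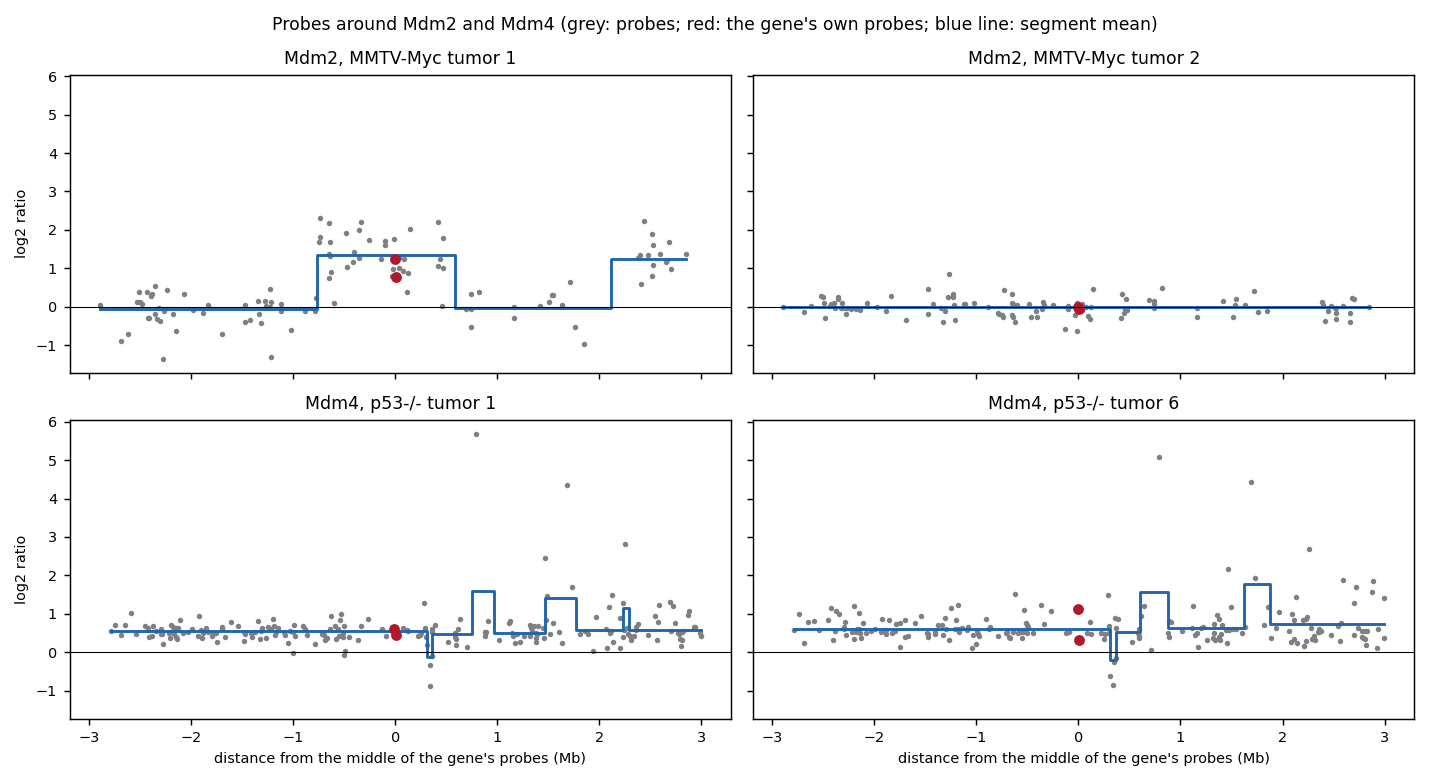
Log2 ratio (vertical axis) against distance in Mb from the middle of the gene's own probes (horizontal axis) for Mdm2 in MMTV-Myc tumors 1 and 2 and for Mdm4 in p53-/- tumors 1 and 6. Grey points are probes, red points are the gene's own probes and the blue line is the segment mean. The Mdm2 segment stands at 1.34 in tumor 1 with flanks near 0, and the Mdm4 region lies on a long raised stretch broken by short segments.

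Elsewhere Mdm2 was lost rather than gained. It lay in a lost segment in 10 of 45 tumors and in a gained one in 2, the other being MMTV-PyMT tumor 7 with a broad segment at 0.32. The losses took 15.1 to 58.4 Mb of chromosome 10 and had means of -0.47 to -0.27. They fell in MMTV-Her2/neu tumors 1, 2, 3 and 5, C3(1)-Tag tumors 3, 4 and 5, p53-/- tumors 1 and 2 and BRCA1-/-;p53+/- tumor 2. Without the same 4 arrays 6 of 41 tumors had a loss, and without all 5 it was 5 of 40.

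By tumor, Mdm2 ranged from -0.32 through -0.11 to -0.05 in p53-/-, so all 6 lay below 0. It measured 0.17, -0.40, -0.40, -0.26 and 0.04 in BRCA1-/-;p53+/- and -0.09, 0.30, -0.63, -0.29 and -0.21 in C3(1)-Tag. All 9 MMTV-PyMT tumors lay above 0, from 0.005 through 0.07 to 0.36. The MMTV-Her2/neu tumors measured -0.40, -0.49, -0.35, 0.73 and -0.57. Tumor 4 thus stood far from the rest, with a first probe at 1.13, a second at 0.33 and the 10 nearest probes at 0.06. In MMTV-HRas tumor 1, the array most like it probe by probe, Mdm2 also read above its neighbours (0.34 against -0.06). MMTV-HRas tumors lay between -0.27 and 0.34 and MMTV-Wnt1 tumors between -0.01 and 0.38. No contrast passed for Mdm2. The differences were -0.21 ± 0.13 (SE) in p53-/-, -0.22 ± 0.14 in BRCA1-/-;p53+/- and -0.23 ± 0.14 in C3(1)-Tag, with limma's adjusted p at 0.292, 0.410 and 0.791. With 1 tumor left out they ranged from -0.23 to -0.16, from -0.30 to -0.16 and from -0.35 to -0.12. Of the 5 genes with a probe pair, Mdm2 had the most alike probes, which correlated at 0.635, and its values followed the 10 nearest probes at r = 0.815.

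Mdm4, on chromosome 1, was higher in p53-/-, together with the DNA around it. All 6 tumors lay above 0, from 0.13 through 0.46 to 0.73. BRCA1-/-;p53+/- tumors measured 0.13, 0.42, 0.60, 0.31 and -0.13, and C3(1)-Tag tumors 0.26, -0.02, -0.26, 0.15 and 0.62. All 9 MMTV-PyMT tumors were above 0 as well, from 0.02 through 0.19 to 0.34, as were the 5 MMTV-HRas tumors at 0.15, 0.34, 0.20, 0.36 and 0.20. MMTV-Her2/neu tumors measured 0.16, -0.24, 0.40, 0.35 and 0.46, MMTV-Wnt1 tumors lay between -0.07 and 0.10, and MMTV-Myc had the lowest mean, with tumor 1 at -0.66.

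The difference between p53-/- and the other models was 0.32 ± 0.10 (SE, adjusted p = 0.0310 by limma), and that of the 10 nearest probes was 0.34 ± 0.090 (SE, adjusted p = 0.00881). The local difference was -0.02 ± 0.081 (SE, adjusted p = 0.863), a mean of 2 probes that went opposite ways. The first probe gave a local difference of 0.23 and the second -0.27 (adjusted p = 0.206 and 0.0884 by limma), and the second lay below its neighbours in all 6 p53-/- tumors. Within both scan dates that held p53-/- tumors the difference was 0.45. The call was lost with slide as a block, where the difference was 0.31 (adjusted p = 0.0751), and without p53-/- tumor 1, 2 or 6, where it was 0.30, 0.29 and 0.26 (adjusted p = 0.0569, 0.0856 and 0.116 by limma). It was also lost without the 5 arrays with alike profiles (0.28, adjusted p = 0.0537). In the log2 ratio itself, the first probe gave 0.56 (adjusted p = 0.0143) and the second 0.07 (adjusted p = 0.739), and the pair correlated at 0.078.

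The p53-/- gains of Mdm4 belonged to almost all of chromosome 1. In tumors 1 and 6 the segment with Mdm4 had a mean of 0.54 and 0.60, and it ended in both at a short segment of 5 probes, 294 kb past Mdm4, with means of -0.12 and -0.20. Beyond this the ratio rose again, and 98.1% and 98.3% of all chromosome 1 probes of these tumors lay in segments with a mean of at least 0.2. The segment means of the pair correlated at 0.597 and their local differences at 0.744. Mdm4 was also gained in BRCA1-/-;p53+/- tumor 3, C3(1)-Tag tumor 5, MMTV-Her2/neu tumor 5 and MMTV-HRas tumors 2 and 4, and lost in C3(1)-Tag tumor 3 and MMTV-Her2/neu tumor 2. In the C3(1)-Tag gain the segment mean was 0.58 over 139 Mb. Without the same 4 arrays with alike profiles Mdm4 was gained in 7 of 41 tumors and lost in 0. Without all 5 it was gained in 7 of 40 and lost in 0. No tumor had a narrow Mdm4 gain like that of Mdm2 in MMTV-Myc tumor 1.

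Atm, on chromosome 9, was higher in p53-/- by its own probes and not by its neighbours. The p53-/- tumors ranged from -0.27 through 0.29 to 0.64, with 5 of 6 above 0. All BRCA1-/-;p53+/- tumors lay below 0, at -0.22, -0.24, -0.48, -0.56 and -0.43, and only 1 C3(1)-Tag tumor was above it, in the series -0.07, -0.12, 0.06, -0.24 and -0.34. MMTV-PyMT tumors ran from -0.35 through -0.14 to 0.16, and the lowest and highest of the remaining oncogene models were -0.44 and 0.27, both MMTV-HRas tumors. MMTV-Myc tumors all lay below 0, from -0.31 to -0.02.

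The difference between p53-/- and the other models was 0.39 ± 0.099 (SE, adjusted p = 0.00589 by limma), and the local difference was 0.37 ± 0.089 (SE, adjusted p = 0.00316). The 10 nearest probes differed by 0.02 ± 0.069 (SE, adjusted p = 0.846), and their spread over the tumors was among the smallest, above that of 0.524% of genes. The differences within the first and second scan dates were 0.33 and 0.43. With scan date as a block the Atm difference was 0.35 and no longer passed (adjusted p = 0.122).

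The call rested on the second Atm probe. This probe, at chr9:53275534-53275593, gave 0.55 ± 0.13 (SE, adjusted p = 0.00455 by limma) in p53-/- and -0.61 ± 0.14 (SE, adjusted p = 0.00649) in BRCA1-/-;p53+/-, where the 5 tumors read -0.25, -0.27, -0.86, -1.42 and -0.88. The first probe, 67707 bases away, gave 0.24 and 0.07 (adjusted p = 0.181 and 0.817), and the pair correlated at 0.136. The second probe was 3.09 times background in Cy5, where 5.88% of probes were dimmer, and its part in the result was not tested. With both probes averaged, BRCA1-/-;p53+/- differed by -0.27 ± 0.11 (SE, adjusted p = 0.129), and with normexp by 0.09. Atm was called lost in 4 tumors and gained in 1, p53-/- tumor 3.

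Chek2, on chromosome 5, was lost in 0 tumors and gained in 9: p53-/- tumors 2, 3 and 6, C3(1)-Tag tumors 3 and 5, MMTV-Her2/neu tumors 1, 2 and 5 and MMTV-Wnt1 tumor 1. These segments were broad, 32.2 to 149 Mb, with means of 0.21 to 0.46. Over all genes 13.3% of pairs were gained and 11% lost. With a split statistic over 5, a running median of 11 probes or the deposited intervals, Chek2 was lost in 1, 2 and 1 tumors. It was then gained in 8, 8 and 11. With a segment mean of at least 0.3 it was gained in 6 and lost in 0. Without the same 4 arrays 7 of 41 tumors had a gain, and without all 5 it was 6 of 40.

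In p53-/- the Chek2 probes ranged from -0.50 through 0.20 to 0.61, the widest span of the 8 models. BRCA1-/-;p53+/- tumors measured 0.13, 0.02, -0.21, -0.36 and -0.42, and C3(1)-Tag tumors -0.21, 0.13, 0.30, 0.15 and 0.26. All 5 MMTV-Myc tumors lay below 0, from -0.38 to -0.09, while the MMTV-PyMT tumors ran from -0.23 through 0.02 to 0.17. The own probes of Chek2 passed in no contrast, with 0.17 ± 0.11 (SE, adjusted p = 0.304 by limma) in p53-/-. With 1 tumor left out this p53-/- difference ranged from 0.077 to 0.30. The 10 nearest probes were higher there by 0.27 ± 0.077 (SE, adjusted p = 0.0157). The neighbours on either side, Hscb and AK009368, were also higher in p53-/-, by 0.41 (adjusted p = 0.0151) and 0.68 (adjusted p = 0.00849).

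Cdkn1a, on chromosome 17, read higher than its neighbours in most tumors. Its probe was above the 10 nearest probes in 37 of 45 tumors, including all 6 p53-/-, all 9 MMTV-PyMT, all 5 MMTV-Her2/neu and all 5 MMTV-Wnt1 tumors, and the 2 measures correlated at -0.0048. In p53-/- the probe ranged from 0.33 through 0.47 to 1.15 and the neighbours from -0.37 through -0.25 to 0.18. MMTV-PyMT tumors ran from 0.14 through 0.68 to 0.86, and MMTV-Her2/neu tumors measured 0.63, 0.86, 0.72, 0.12 and 1.06. The Brca1-deleted tumors were the lowest model by mean, with -0.09, 0.002, 0.21, 0.55 and -1.09, and C3(1)-Tag tumors measured 0.49, 0.41, 0.26, -0.09 and -0.01. MMTV-Myc tumor 1, at -0.44, lay below the 0.34 to 0.44 of its group. The probe was 3.53 times background in Cy5, where 9.75% of probes were dimmer. With normexp its mean went from 0.57 to 0.28 in p53-/-, from 0.63 to 0.23 in MMTV-PyMT and from 0.68 to 0.35 in MMTV-Her2/neu, and the part of dimness in these levels was not tested.

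The local difference of Cdkn1a was higher in p53-/- by 0.45 ± 0.16 (SE, adjusted p = 0.0407 by limma). The probe alone differed by 0.16 ± 0.16 (SE, adjusted p = 0.532), and the 10 nearest probes were lower there by -0.29 ± 0.078 (SE, adjusted p = 0.00940). With 1 tumor left out the difference of the probe alone ranged from 0.044 to 0.21. The call of the local difference was lost with slide or scan date as a block, where it was 0.47 and 0.36 (adjusted p = 0.134 and 0.332). It was also lost without p53-/- tumor 2, 3, 4 or 6 or MMTV-Her2/neu tumor 4, where it was 0.41, 0.42, 0.46, 0.45 and 0.43 (adjusted p = 0.128, 0.118, 0.0646, 0.0678 and 0.0502 by limma). Without the 5 arrays with alike profiles it was 0.47 (adjusted p = 0.0557). Within the first and second scan dates it was 0.27 and 0.44. The gene 9830134C10Rik, 42.9 kb away, was lower in p53-/- by -0.44 (adjusted p = 0.00217), while Sfrs3 on the other side differed by -0.12 (adjusted p = 0.579).

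In BRCA1-/-;p53+/- the Cdkn1a probe differed from the other models by -0.50 ± 0.17 (SE, adjusted p = 0.0715 by limma). This value passed without tumor 4 of that model (adjusted p = 0.0296), MMTV-Myc tumor 1 (0.0416) or MMTV-HRas tumor 2 (0.0335). Without its tumor 5 it was -0.25 and with normexp -0.20. By segment, Cdkn1a was the most often gained of the 8, in 11 tumors, 4 of them MMTV-HRas (tumors 1, 2, 4 and 5, with means of 0.20 to 0.44). It was lost in p53-/- tumors 1, 3 and 6, at -0.29, -0.22 and -0.28, tumors whose own Cdkn1a probe read 0.33, 0.62 and 0.43. Over all genes 13.3% of pairs of gene and tumor were gained and 11% lost. With a segment mean of at least 0.3, Cdkn1a was gained in 4 tumors and lost in 0. Chek2 was then gained in 6 and Trp63 in 5, so Cdkn1a no longer had the most gains.

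**Figure D4:**
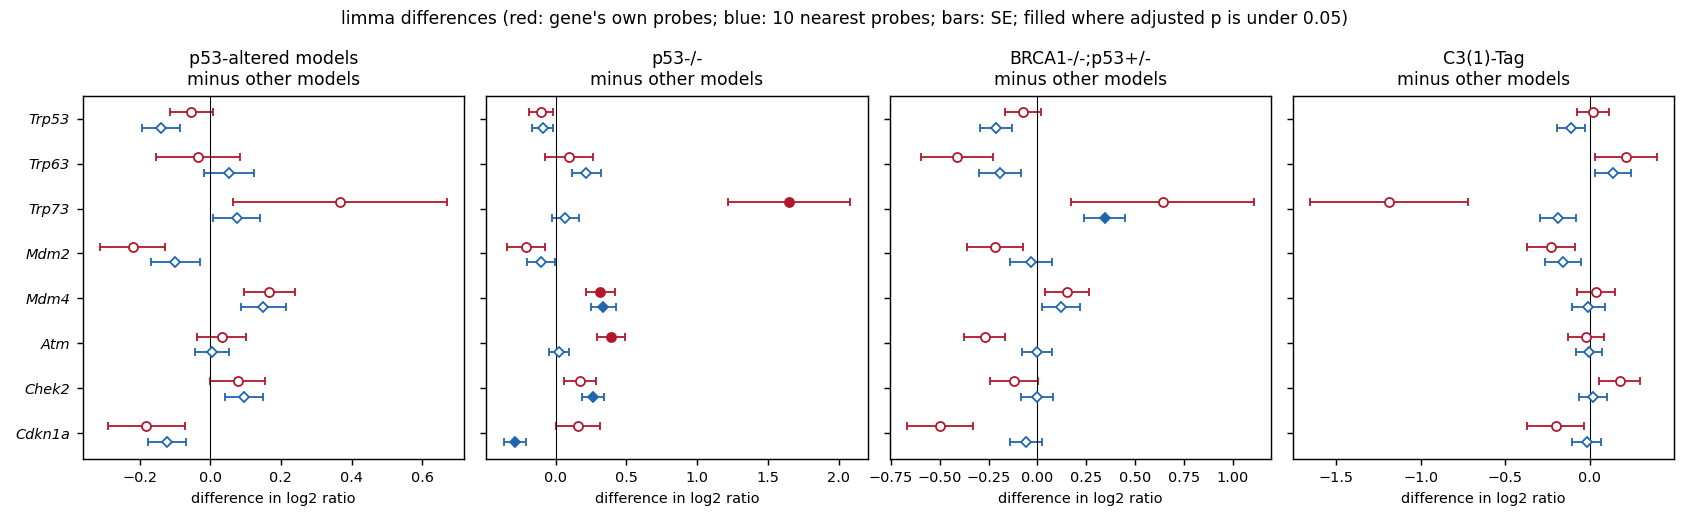
Difference in log2 ratio between the p53-altered models, or each of them, and the 5 other models (horizontal axis, scales differ) for the 8 genes (vertical axis). Red circles are the gene's own probes and blue diamonds the 10 nearest probes, bars are the SE of limma, and filled symbols have an adjusted p under 0.05. In p53-/- both symbols are filled only for Mdm4, and those of Cdkn1a lie on opposite sides of 0.

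In the 3 single-model comparisons, 3 of the 8 genes passed by limma in p53-/-, against 15.3% of all genes, and the same 3 had an unadjusted p under 0.05, against 29.6%. In BRCA1-/-;p53+/- 0 passed, against 5.61% of all genes (2.5% higher and 3.11% lower), and 3 had an unadjusted p under 0.05, against 19.8%. In C3(1)-Tag 0 passed, as did 0 of all genes (0.0%), and 1 had an unadjusted p under 0.05, against 6.36% (1274 genes). The p53-/- calls, Trp73, Mdm4 and Atm, were all higher. For the local difference, 3 passed in p53-/- (22.4% of all genes), 0 in the Brca1-deleted model (8.39%, of which 3.77% higher and 4.62% lower), 0 in C3(1)-Tag (0.0%) and 0 in the p53-altered models together (4.05%). At an unadjusted p under 0.05 these counts were 3, 3, 1 and 1, against 36.5%, 22.9%, 5.59% (1120 genes) and 17.9% of all genes. Across all 8 models limma's F test called Trp73, Atm and Cdkn1a (adjusted p = 0.0200, 0.0190 and 0.0439), where it called 21.1% of all genes. Mdm4 and Trp53 did not pass it (0.0549 and 0.104).

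Segment calls gave a count for each gene in each tumor, a segment being called when its mean was at least 0.2 in size. Of the 360 pairs of gene and tumor, 43 were gained and 35 lost (11.9% and 9.72%, against 13.3% and 11% over all genes). In the p53-altered models 16.4% of pairs were gained and 18.8% lost, against 19.8% and 22.0% of all genes in the same tumors. In the other models the shares were 9.48% and 4.74%, against 9.77% and 4.9%. The 8 genes thus had no more calls than genes at large in either class.

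The called segments were long. Their median length was 34.7 Mb, 27 of 78 covered the larger part of the probes of their chromosome, 14 were under 10 Mb, and only the Mdm2 gain in MMTV-Myc tumor 1 was under 2 Mb or reached a mean of 1. None of the 8 genes was called in 16 of 45 tumors, 3 of the 16 p53-altered tumors and 13 of the 29 others. C3(1)-Tag tumor 5 and MMTV-Her2/neu tumor 5 had the most calls, with 8 and 7 of the 8 genes, in tumors where 84.5% and 53.8% of all genes were called. By model, p53-/- had 10 gains and 11 losses of 48 pairs (20.8% and 22.9%, against 27.6% and 26.6% of all genes), C3(1)-Tag and MMTV-Her2/neu each had 8 and 8 of 40 (against 13.4% and 19.2%, and 13% and 21.8%), and the Brca1-deleted model had 3 and 5 of 40 (against 16.7% and 19.2%). MMTV-HRas had 6 gains and 2 losses of 40 (against 22.1% and 3.01%), and MMTV-PyMT 5 and 0 of 72 (against 7.39% and 0.761%). At the other end MMTV-Myc had 1 and 1 of 40 (against 2.19% and 0.161%) and MMTV-Wnt1 2 and 0 of 40 (against 6.11% and 2.09%). Of the 78 calls, 54 had the same sign in the deposited intervals of the study, and none had the opposite sign.

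**Figure D5:**
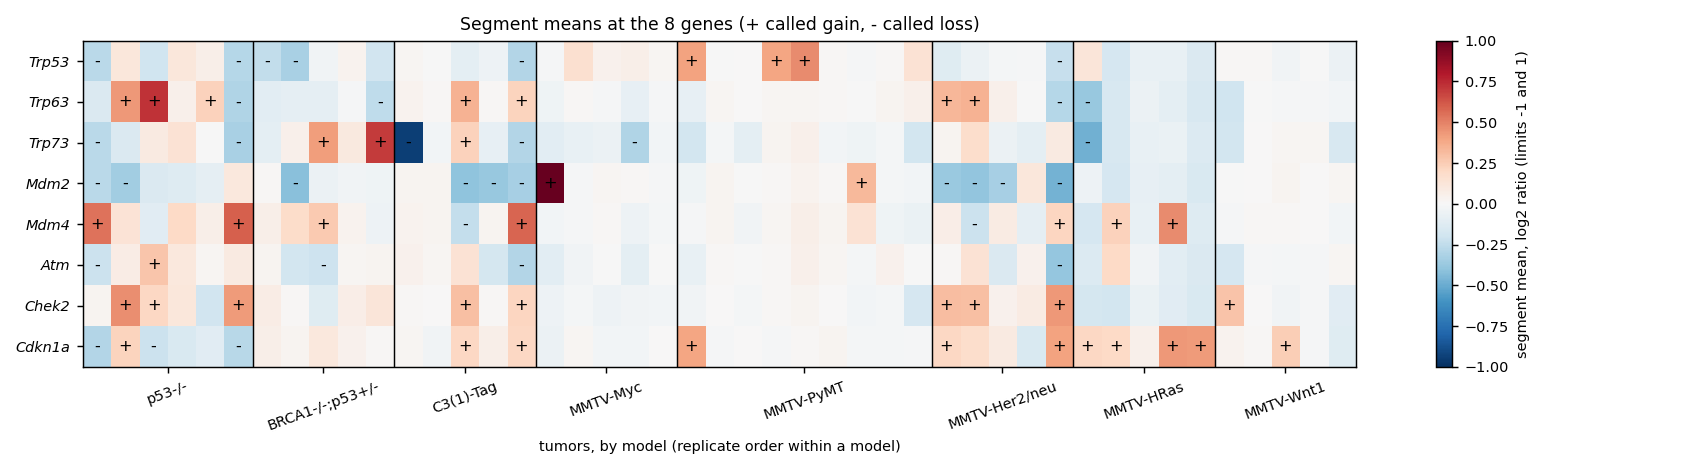
Segment mean at the 8 genes (vertical axis) in 45 tumors grouped by model (horizontal axis), in colour from -1 (blue) to 1 (red) on the log2 scale. A plus marks a called gain and a minus a called loss. Chek2 has 9 gains and no loss, Mdm2 has 10 losses and 2 gains, and MMTV-Myc, MMTV-PyMT and MMTV-Wnt1 tumors are mostly uncalled.

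The wider pathway was read from a list of 59 genes, of which 49 were measured and the other 10 are not analysed here. In the p53-altered models 0 of the 49 were higher and 1 was lower (1.38% and 1.43% of all genes), with a median difference of 0.02. The lower gene was Aifm2, a p53 target on chromosome 10 with a role in cell death, at -0.18 ± 0.050 (SE, adjusted p = 0.0321 by limma), below 0 in 16 of 16 tumors. For the local difference 1 was higher (1.7% of all genes) and 0 lower (2.36%). This was Rfwd2, a ubiquitin ligase for p53 on chromosome 1, at 0.16 ± 0.049 (SE, adjusted p = 0.0442), with its own probes above 0 in 14 of 16 tumors.

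In p53-/- alone, 4 of the 49 were higher (8.21% of all genes) and 5 lower (7.05%). The genes of these counts are named after their values were seen. The higher ones, of the 13 measured regulators of p53 protein, lie on 2 chromosomes, Usp7 and Crebbp on chromosome 16 and Trp53bp2 and Rfwd2 on chromosome 1. The 10 probes nearest to them averaged 0.18, 0.19, 0.48 and -0.17 in the p53-/- tumors. For the local difference 1 gene of this group was higher and 2 were lower. The lower ones were Twist1 of the same group, Sesn1 of the 12 cell cycle and repair targets, and Tnfrsf10b, Aifm2 and Apaf1 of the 17 targets in apoptosis and metabolism. Tnfrsf10b, a death receptor on chromosome 14, had the smallest p, with -0.46 ± 0.11 (SE, adjusted p = 0.00452 by limma) and all 6 tumors below 0, and Aifm2 followed with -0.25 ± 0.071 (SE, adjusted p = 0.0127). Of the 7 upstream kinases and sensors 0 passed (15.3% of all genes) and 1 had an unadjusted p under 0.05 (29.6%). For the local difference 2 of them were higher and 1 lower, where 22.4% of all genes were called. Over all 49 genes 7 local differences were higher (10.1% of all genes) and 8 lower (12.3%), with the smallest p for Rfwd2 (0.42 ± 0.069, adjusted p = 3.34e-05) and Casp9, an initiator caspase (0.43 ± 0.084, adjusted p = 0.000337). In BRCA1-/-;p53+/- and in C3(1)-Tag 0 of the 49 passed by limma (5.61% and 0.0% of all genes), with 9 and 2 at an unadjusted p under 0.05 (19.8% and 6.36% of all genes).

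By segment, and again named after the values were seen, the pathway genes most often gained were Hipk2, a kinase of p53, in 16 of 45 tumors and 9630033F20Rik, the gene also called Tigar, in 15, both on chromosome 6. Lrdd, which encodes the death domain protein Pidd, was the most often lost, in 15 tumors, followed by Sesn1 and Aifm2 on chromosome 10 in 13 each. Over all genes, 13.3% of pairs of gene and tumor were gained and 11% lost. Cdkn2a, which encodes the Arf inhibitor of Mdm2, was lost in 8 tumors, 7 of the 16 p53-altered and 1 of the 29 others, and gained in 3. Genes at large leaned the same way, with 22.0% of pairs lost in the p53-altered models and 4.9% in the others. The share of Cdkn2a in the p53-altered tumors was larger than that of genes at large.

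The 8 genes varied largely apart from each other. Over the 45 tumors the highest correlation between the log2 ratios of 2 of them was that of Trp63 and Cdkn1a (r = 0.484), and the lowest that of Mdm2 and Mdm4 (r = -0.396). With the 10 nearest probes in place of the own probes these were -0.080 and -0.186. Arrays share slides and scan dates, so these values are given as a description. The gene on another chromosome most like each of the 8 reached r = 0.572 for Trp53 (Ccnk), 0.754 for Trp63 (C230081A13Rik), 0.719 for Mdm2 (AK076421), 0.717 for Mdm4 (Fkbp9), 0.710 for Atm (Olfr601), 0.711 for Chek2 (Fgl1) and 0.822 for Cdkn1a (AK081162).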

How the data were processed

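DNA from 45 mammary tumors was hybridized on 2-colour Agilent 44K arrays (mm8). Per the labels, the authors scanned the arrays and made log ratios with Agilent Feature Extraction 10.7, while the file headers give 9.5.1.1. The deposited LogRatio column holds log10 of Cy5 over Cy3, background-subtracted and dye-normalized by that program. No further loess was applied. A deposited table of the authors' ADM-2 intervals holds log2 values and served only to check direction and calls. The deposited intensity columns (mean signal and local background per dye, scanned by the authors) served for brightness and for normexp. The LogRatio with its sign turned, rescaled to log2, had the median of each array's autosomal probes subtracted, outlier spots were left out, and probes of a gene were averaged. Another dye normalization code was carried by 6 arrays.

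Models were compared in limma 3.58.1 (R 4.3.3) with 1 mean per model, each model weighing the same, a two-sided moderated test and Benjamini-Hochberg adjustment over 20034 genes. In simulated data for the p53-altered comparison, 54% of shifts of 0.3 and 94% of 0.6 were recovered among 20034 genes, with 3 false calls. Segments came from circular binary segmentation (split statistic over 6, at least 5 probes, mean at least 0.2). The members and lists were chosen with earlier results of these data known. Named genes were the 8, pathway genes past the threshold (in single models the 2 with the smallest p), the nearest gene on either side of a member and the most alike genes on other chromosomes. Outside this rule, and after their values were seen, the text names the other pathway genes called in p53-/-, pathway genes in the segment counts, and genes of the Mdm2 segment. Alternatives were other centring, background correction, spot filters, slide and scan blocks, left-out arrays, other weights, the methods' t-test, other segment settings, and, added after the data were seen, the 10 nearest probes and MMTV-Her2/neu tumor 1 left out with the other alike arrays. The number of arrays limits the precision.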

Additional observations from a re-analysis of the deposited data

Results flagged for a closer look

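In 12 of 128 groups of tumors and values, 1 tumor stood far from the others of its model. Chance gives about 5% of such groups. For the own probes these were Mdm2 in MMTV-Myc tumor 1 (1.02) and in MMTV-Her2/neu tumor 4 (0.73), and Cdkn1a in p53-/- tumor 2 (1.15), MMTV-Myc tumor 1 (-0.44) and MMTV-PyMT tumor 2 (0.14). For the mean of the 10 nearest probes they were Mdm2 in MMTV-Myc tumor 1 (1.17), MMTV-PyMT tumor 7 (0.27) and MMTV-Her2/neu tumor 4 (0.0575), Trp53 in C3(1)-Tag tumor 5 (-0.27) and MMTV-Myc tumor 2 (0.25), Chek2 in MMTV-Wnt1 tumor 1 (0.32) and Cdkn1a in MMTV-PyMT tumor 1 (0.41). The first of these is the narrow chromosome 10 gain, seen in both measures. In MMTV-Her2/neu tumor 4 the own Mdm2 probes were high and the neighbours were near 0, while the other 4 tumors of that model were low in both. The probe by probe deviations of that array correlated at 0.857 with those of MMTV-HRas tumor 1, where Mdm2 read 0.34 and its neighbours -0.06. MMTV-Wnt1 tumor 1 is also the array without a raised Wnt1 probe.

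The Trp73 probe lay above 0 in every p53-/- tumor and below 0 in every C3(1)-Tag tumor, and the means of these models differed by 2.84. This difference was not tested. With normexp the means were 0.21 and 0.00074, the values overlapped, p53-/- tumor 5 read -0.09 and C3(1)-Tag tumor 3 read 0.20.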

How the results depend on the processing

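Of 3520 differences of single genes recomputed under another setting, 3440 kept their direction and their side of the threshold. Of 556 recomputed counts of genes or calls, 518 stayed within 1.5 times the reported count. Where a value did not, the cause was not tested unless fewer tumors entered. No paired analysis was possible because the labels pair no tumors and replicate numbers only name them. Scan date as a block was not run for BRCA1-/-;p53+/- or for the p53-altered models together, since it could not be estimated there. The number of arrays limits the precision, and the part of the dimness of single probes was not tested.

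The 562 genes called for the p53-altered models became 366 centred on the density peak, 291 with normexp, 224 with slide as a random block, 230 without 4 arrays with alike profiles (C3(1)-Tag 3 and 4, MMTV-Her2/neu 2 and 3), 189 without these and MMTV-Her2/neu 1 (5 arrays, chosen after the data were seen), 855 with each tumor weighing the same, 253 with the methods' t-test after Benjamini-Hochberg and 3435 with no adjustment, and 335 to 804 with 1 tumor left out (335 without C3(1)-Tag tumor 5, 355 without BRCA1-/-;p53+/- tumor 3). With no adjustment that test also passed Mdm2 and Mdm4. The 3058 of p53-/- became 1799 with the slide block, 437 with the scan block and 1487 to 3859 with 1 tumor left out (1487 without p53-/- tumor 3, 2016 without tumor 2). The 1123 of BRCA1-/-;p53+/- became 234 with normexp, 590 with the slide block and 470 to 1285 with 1 tumor left out (470 without BRCA1-/-;p53+/- tumor 3, 670 without tumor 4). The 0 of C3(1)-Tag ranged from 0 to 1 (1 without its tumor 1). The 4227 that differed among the 8 models became 2553 with normexp, 1670 with the slide block and 2269 and 2067 without the 4 and the 5 arrays.

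For the local difference, 812 genes of the p53-altered models became 361 with normexp, 251 with the slide block, 341 and 311 without the 4 and the 5 arrays and 541 to 1068 with 1 tumor left out (541 without BRCA1-/-;p53+/- tumor 3). The 4494 of p53-/- became 1739 with the slide block, 894 with the scan block and 2140 to 5276 (2140 without p53-/- tumor 3, 2237 without tumor 2). The 1681 of BRCA1-/-;p53+/- became 352 with normexp, 574 with the slide block and 745 to 2153 (745 without its tumor 3, 1000 without tumor 4), and the 0 of C3(1)-Tag became 1 with the scan block. The 78 called pairs of gene and tumor became 41 with a segment mean of at least 0.3.

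Directions turned mostly where a difference was near 0. With normexp, BRCA1-/-;p53+/- gave -0.00058 for Mdm4 and 0.091 for Atm, and C3(1)-Tag -0.028 for Trp53. Normexp local differences turned to -0.019 for Mdm4 and 0.057 for Cdkn1a in the p53-altered models, to -0.11 for Trp73, -0.050 for Mdm4 and 0.061 for Atm in BRCA1-/-;p53+/-, and to 0.16 for Trp73 and -0.000699 for Mdm4 in C3(1)-Tag. The 10 nearest probes gave 0.054 for Trp63 in the p53-altered models, -0.29 for Cdkn1a in p53-/-, and -0.11 for Trp53 and -0.0088 for Mdm4 in C3(1)-Tag. The scan block gave C3(1)-Tag -0.0069 for Trp53, -0.0010 for Mdm4 and 0.0099 for Atm, and local differences of 0.12 for Trp53, 0.11 for Mdm4 and 0.10 for Chek2 in p53-/- and of -0.021 for Mdm4 and 0.015 for Atm in C3(1)-Tag. Without the 4 arrays, Trp53 in C3(1)-Tag was -0.040, and the local differences of Mdm4 and Cdkn1a in the p53-altered models were -0.0078 and 0.0053. Without the 5 arrays these 3 values were -0.048, -0.033 and 0.0087, and the local difference of Mdm4 was -0.016 in BRCA1-/-;p53+/- and -0.013 in C3(1)-Tag. With 20 nearest probes the local difference of Mdm4 was 0.12 in p53-/- and -0.0028 in C3(1)-Tag.

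With 1 tumor left out, Trp63 in the p53-altered models ranged from -0.084 to 0.047, and C3(1)-Tag from -0.023 to 0.039 for Trp53, -0.082 to 0.14 for Mdm4 and -0.075 to 0.026 for Atm. Local differences ranged from -0.0039 to 0.039 for Mdm4, -0.042 to 0.012 for Chek2 and -0.11 to 0.028 for Cdkn1a in the p53-altered models, from -0.054 to 0.026 for Trp53 and -0.060 to 0.013 for Mdm4 in p53-/-, and from -0.034 to 0.066 for Mdm4 in BRCA1-/-;p53+/-. The local difference of Atm in p53-/- lost its call with the scan block (adjusted p = 0.0728 by limma). In BRCA1-/-;p53+/- the local difference of Atm passed without its tumor 2 (0.0420) or MMTV-Wnt1 tumor 5 (0.0469), and that of Cdkn1a without its tumor 4 (0.0414).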
